A study of Mus musculus with 4 samples.

Results

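In CD45+ cells of the mouse spinal cord, 273 of 1825 cells were B cells with few reads of both MHC class II and the surrogate light chain. B cells were taken as cells with at least 500 CPM (reads of a gene per 1000000 reads of the cell) of Cd79a plus Cd79b, the signalling chains of the B cell receptor, and under 500 CPM of Csf1r, a receptor of microglia and macrophages. Of these, MHC-II-low B cells without pre-BCR had under 1000 CPM of Igll1, Vpreb1 and Vpreb2 together, the surrogate light chain of the pre-B cell receptor (pre-BCR), and under 2000 CPM of H2-Aa plus H2-Ab1, the chains of the MHC class II molecule I-A. They were set against the 254 B cells with at least 2000 CPM of H2-Aa plus H2-Ab1 (MHC-II-high), and 64 further B cells were MHC-II-low with pre-BCR reads. The cells were chosen by their own reads, so every difference below is a description and none carries a test.

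The libraries came from spinal cord of adult female Swiss Webster mice that were uninjured or had a thoracic contusion 7 or 60 days earlier (dpi), with the tissue of several mice pooled into 1 library for each condition. Single cells positive for CD45 had been sorted with a gate towards small cells of low granularity, which can set the shares of cell types, and processed in nanowells. The labels also list a 3 dpi sample, which is not analysed here. The uninjured library held 426 cells, the 7 dpi library 454 and the 60 dpi library 945, with medians of 554836, 663734 and 287134 reads per cell.

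B cells assemble their receptor stepwise in the bone marrow. A heavy chain first pairs with the surrogate light chain as the pre-BCR, then with a kappa or lambda light chain as IgM, and the immature B cell leaves the marrow to mature in the spleen. MHC class II and its loading partners, which present peptides to CD4+ T cells, increase with maturation, as do the coreceptors Cd22 and Cr2 and the low-affinity IgE receptor Fcer2a, while Vpreb3, which binds the receptor chains inside the cell, and the recombinase Rag1 belong to earlier stages.

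The libraries differed from their labels and from each other in ways that touch these cells. All mice were labelled female, but no cell of the 7 dpi library had a read of Xist, the RNA of the inactive X chromosome, and 352 of its 454 cells had a read of at least 1 of 4 genes of the Y chromosome. At 60 dpi, 543 cells had Xist reads and 139 had Y-linked reads; among the MHC-II-low B cells 128 had the first, 37 the second and 21 both. Between 43 and 102 cell barcodes were shared by each pair of libraries, but none by 2 MHC-II-low B cells of different libraries. Reads of other cell types were common. Of 9 microglial markers, at least 3 were above 100 CPM in 2 of 9 MHC-II-low B cells in the uninjured library, in 25 of 26 at 7 dpi and in 75 of 238 at 60 dpi. Summed microglial markers had a median of 5657 CPM in the MHC-II-low B cells at 7 dpi, against 16987 CPM in microglia, taken here as cells with at least 500 CPM of Csf1r and under 500 CPM of Cd79a plus Cd79b. The part of free RNA, of doublets and of mixed mice in the results was not tested, and no doublet caller was run.

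Vpreb3 and Chchd10, which encode the receptor chaperone and a small mitochondrial protein, are close neighbours on mouse chromosome 10 and were both abundant in the MHC-II-low B cells. The 250 bases before each RefSeq start site (build GRCm38.p6) are shown because Vpreb3 was a marker given for these cells, Chchd10 is its neighbour and both windows hold the octamer ATTTGCAT, the letters bound by Oct factors, on one strand or the other. The Vpreb3 window lies on the plus strand at chr10:75948050-75948299 and has 1 match. The Chchd10 window lies on the plus strand at chr10:75932880-75933129 and has 2. By GENCODE vM21 the Vpreb3 gene spans chr10:75943057-75949657, so its window lies inside the annotated gene. Matches are in capitals, and neither window overlaps an exon of the GENCODE vM21 annotation.

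Vpreb3: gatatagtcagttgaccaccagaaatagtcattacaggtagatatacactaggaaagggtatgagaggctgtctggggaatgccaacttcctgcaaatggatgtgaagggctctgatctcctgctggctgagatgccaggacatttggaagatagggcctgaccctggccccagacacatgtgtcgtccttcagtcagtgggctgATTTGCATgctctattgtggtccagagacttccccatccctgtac

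Chchd10: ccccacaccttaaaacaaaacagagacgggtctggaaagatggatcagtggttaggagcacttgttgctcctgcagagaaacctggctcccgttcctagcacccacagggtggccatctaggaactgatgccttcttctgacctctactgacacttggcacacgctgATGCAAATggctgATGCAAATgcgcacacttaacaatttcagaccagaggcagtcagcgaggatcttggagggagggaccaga

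Across 32544 RefSeq windows of this length, 1.62% held the octamer on either strand. Of 14 listed early B cell genes with a window 2 held it, Vpreb3 and Chchd10. Of 15 listed mature B cell genes with a window 2 also held it, Ccr6 and Ms4a4c. The genes that set the MHC-II-high cells apart are shown by the stretch around a Y box, spelled TGATTGG and searched on both strands, that stands before the start sites of H2-Aa (minus strand, chr17:34287847-34287933), H2-Eb1 (plus strand, chr17:34305746-34305832) and H2-DMb2 (plus strand, chr17:34145097-34145183). H2-Eb1 encodes the beta chain of the second class II molecule I-E, and H2-DMb2 a chain of H2-DM, which loads peptides. The start sites are those of RefSeq. By GENCODE vM21 the H2-DMb2 gene spans chr17:34143307-34151555, so its stretch lies inside the annotated gene.

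H2-Aa: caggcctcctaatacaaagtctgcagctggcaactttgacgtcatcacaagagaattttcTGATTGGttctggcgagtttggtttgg

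H2-Eb1: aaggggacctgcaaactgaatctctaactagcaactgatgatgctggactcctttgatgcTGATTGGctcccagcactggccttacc

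H2-DMb2: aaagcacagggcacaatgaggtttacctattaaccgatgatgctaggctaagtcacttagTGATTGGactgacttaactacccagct

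The capitals mark the 7 letters, which 7.21% of all windows held. Of 10 listed class II presentation genes with a window, 6 had the letters, namely H2-Eb1, H2-Eb2, H2-DMb1, H2-DMb2, H2-Oa and H2-Ob, and H2-Aa of the selection rule had them too. A match is a description of the letters, not evidence of a bound site.

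MHC-II-low B cells without pre-BCR were found in every library. They were 9 of 25 B cells in the uninjured library (36%, 95% exact Clopper-Pearson interval 18.0 to 57.5%), 26 of 42 at 7 dpi (61.9%, 45.6 to 76.4%) and 238 of 524 at 60 dpi (45.4%, 41.1 to 49.8%). The intervals of all 3 libraries overlapped. Without cells that had 3 markers of another cell type, 1 of 3 B cells remained in the class at 7 dpi (33.3%, 0.840 to 90.6%). Relative to all cells they were 2.11% (0.970 to 3.97%) in the uninjured library, 5.73% (3.77 to 8.28%) at 7 dpi and 25.2% (22.4 to 28.1%) at 60 dpi, which was the highest share. These intervals, like all others below, cover counting error within 1 library only. B cells with pre-BCR reads and low MHC-II were 0 of 25 in the uninjured library, which allows a share of up to 12% by a limit of 3 counts (13.7% by the exact interval), 6 of 42 at 7 dpi and 58 of 524 at 60 dpi. Without cells that had Y-linked reads, the share of B cells at 60 dpi was 45.1%.

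**Figure D1:**
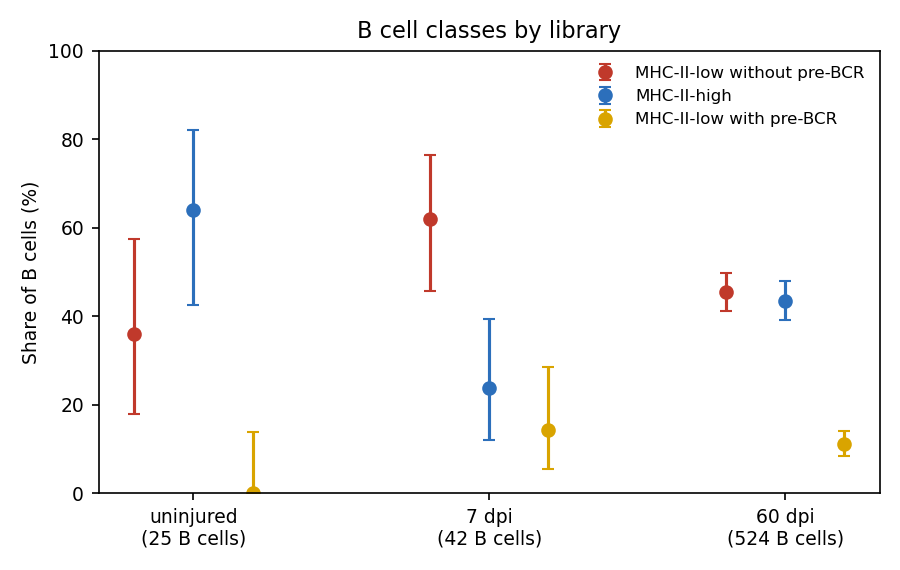
Share of B cells (%, vertical axis) that were MHC-II-low without pre-BCR (red), MHC-II-high (blue) and MHC-II-low with pre-BCR (yellow) in each library; bars are 95% exact binomial intervals, counting error only. The red points stand at 36% (uninjured), 61.9% (7 dpi) and 45.4% (60 dpi).

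The values that chose the cells formed no gap at the cuts. The MHC-II-low B cells nearest to the class II cut had 1977, 1978 and 1998 CPM of H2-Aa plus H2-Ab1, and the nearest MHC-II-high cells 2005, 2010 and 2016 CPM. Their median was 18.5 CPM in the uninjured library, 15.9 CPM at 7 dpi and 569 CPM at 60 dpi, so most cells of the first 2 libraries had almost no class II reads. Microglia of the same libraries had medians of 7.10, 13.0 and 956 CPM, and the median of the MHC-II-low B cells at 60 dpi was thus below that of microglia. Of the 273 cells, 91 had at least 1000 CPM and 1 had no read. For the surrogate light chain, the nearest cells inside had 760, 877 and 920.4 CPM and the nearest outside 1087, 1092 and 1157 CPM. Cells with no surrogate light chain read numbered 101, and 14 had at least 300 CPM. For Cd79a plus Cd79b, the lowest cells inside had 503, 513 and 515 CPM and the highest cells outside 487, 493 and 498 CPM.

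The B cell label was checked in summed reads against Ighm, Cd79b and Vpreb3. Ighm, the heavy chain of IgM, was at 3061 CPM (uninjured), 2799 CPM (7 dpi) and 2892 CPM (60 dpi) in the reads summed over the MHC-II-low B cells of a library. MHC-II-high B cells had 3430, 1526 and 2484 CPM, and microglia 156, 80.3 and 475 CPM. Ighm was thus within 2-fold in both classes and above microglia in each library. Cd79b, which also entered the selection, was at 2898, 2597 and 2278 CPM in the MHC-II-low B cells. The sums do not show that every cell bears the label. Some MHC-II-low cells at 7 dpi, and a cell of the uninjured library, had no read of Ighm or Vpreb3. At 7 dpi 13 of 26 MHC-II-low cells had at least 2000 CPM of Ighm, and 13 of 26 had at least 5 microglial markers above 100 CPM.

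Vpreb3 was at 1722 CPM in the MHC-II-low B cells of the uninjured library, 1479 CPM at 7 dpi and 1269 CPM at 60 dpi, against 1104, 1105 and 759 CPM in MHC-II-high B cells and 0.479, 29.2 and 116 CPM in microglia. It was higher in the MHC-II-low cells in all 3 libraries, by 0.64, 0.42 and 0.74 on the log2 scale, each under 2-fold; without cells that had Y-linked reads the difference at 60 dpi was 1.06, and with a class II cut of 1000 CPM it was 0.24. One cell gave 55.9% of the Vpreb3 reads of the 9 uninjured cells, whose median was 1225 CPM against 11.2 CPM in MHC-II-high cells. At 60 dpi the difference was wider in the typical cell than in the sum. The median was 1130.1 CPM (quartiles 28.6 and 2289) in MHC-II-low cells, 102 CPM (1.90 and 1103) in MHC-II-high cells and 3.69 CPM in microglia, and 164 of 238 MHC-II-low cells were above 100 CPM. In cells thinned to 50000 reads, Vpreb3 had a read in 77.8% (71.9 to 82.9%) of MHC-II-low cells, 67.7% (61.1 to 73.9%) of MHC-II-high cells and 31.2% of microglia. Before thinning the shares were 85.7%, 75.4% and 59.1%, at median depths of 287398, 271178 and 285681 reads. Thinning left out 4 MHC-II-low and 8 MHC-II-high cells at 60 dpi.

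Across genes, MHC-II-low and MHC-II-high B cells were compared by the log2 ratio of summed CPM plus 1 among genes with at least 50 CPM and a read in at least 25% of cells in either class. At 60 dpi, 124 of 2507 genes (4.95%) were at least 2-fold higher in MHC-II-low cells and 94 (3.75%) at least 2-fold lower. In the uninjured library, with 9 and 16 cells, 28.4% were higher and 36% lower by that measure, and at 7 dpi, with 26 and 10 cells, 34.5% and 21.7%, so single genes of these 2 libraries are read only beside the third. At least 2-fold at 60 dpi with the same sign in all 3 libraries were 40 genes higher (1.6%) and 38 lower (1.52%); leaving the 7 dpi library out of that rule gave 59 (2.35%) and 67 (2.67%).

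Of the 13 listed class II presentation genes that were no part of the rule, 8 passed the filter on low values at 60 dpi; 6 were at least 2-fold lower in MHC-II-low cells and none higher (median log2 ratio -1.80, against 0.04 for all genes). H2-Eb1 was read 0 times in the 9 uninjured cells, which allows up to 0.52 CPM, and was at 13.2 CPM at 7 dpi and 151 CPM at 60 dpi, against 991, 1146 and 996 CPM in MHC-II-high cells. The low cells were thus below the high cells in every library, with most reads at 60 dpi. H2-DMa, H2-DMb1, H2-DMb2, H2-Ob and Cd74, the invariant chain that escorts class II molecules, were the other 5. H2-DMb1 and H2-DMb2 are close copies whose reads may be split between them. Cd74 was at 124, 8.68 and 50.7 CPM in MHC-II-low cells and at 243, 141 and 188 CPM in MHC-II-high cells, lower by 0.97, 3.87 and 1.87 on the log2 scale. They belong to the same pathway as the genes of the selection rule, so their direction adds no independent evidence for the class. Microglia at 60 dpi also had H2-Eb1 (366 CPM) and Cd74 (98.5 CPM), above the level in the MHC-II-low B cells.

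Among genes of mature B cells, some were also lower. Of 21 listed, 12 passed the filter at 60 dpi, of which 4 were at least 2-fold lower in the MHC-II-low cells (Cd55, Bank1, Cd83 and Faim3) and none higher (median -0.20). Of the 12, 8 had a ratio below 0 and 4 above it. Among those above 0 was S1pr1, with 0.15 to 0.66 over the alternatives tried. At 7 dpi S1pr1 was at least 2-fold lower in MHC-II-low cells. Bank1, a scaffold of B cell receptor signalling, was at 17.8, 1.54 and 25.6 CPM in the MHC-II-low cells, in order of time, and at 816, 525 and 218 CPM in MHC-II-high cells. Microglia had 7.14, 20.3 and 18.3 CPM, so MHC-II-low cells were below microglia at 7 dpi and above them in the other libraries, and MHC-II-high cells were above both in each library. Faim3, the older symbol of the IgM Fc receptor Fcmr, was at 134, 14.3 and 96.3 CPM against 837, 170 and 358 CPM, lower in MHC-II-low cells by 2.64, 3.48 and 1.89 on the log2 scale. Fcer2a did not pass the filter at 60 dpi. It had no read in the 9 uninjured cells, 2 reads in the 26 cells at 7 dpi and 2.10 CPM at 60 dpi, against 183, 371 and 89.2 CPM in MHC-II-high cells. Cr2, the complement receptor CD21, had no read, 3 reads and 5.08 CPM, against 43.3, 15.7 and 43.2 CPM. Ccr7, a homing receptor for lymph nodes, was at 32.4, 44.3 and 98.2 CPM against 376, 119 and 181 CPM, lower in each library but under 2-fold at 60 dpi. Cd83, an activation marker, was at 156, 545 and 144 CPM against 531, 748 and 489 CPM, and at 527, 934 and 509 CPM in microglia.

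Fewer receptor chains and coreceptors than mature B cell genes were 2-fold apart, but their median ratio was further below 0 (-0.45 against -0.20). Of 17 listed, 13 passed the filter at 60 dpi; Cd22 and Ms4a1 were at least 2-fold lower in MHC-II-low cells and none was higher (median -0.45). Ms4a1, which encodes CD20, was at 1978 CPM in the MHC-II-low cells of the uninjured library, 96.5 CPM at 7 dpi and 377 CPM at 60 dpi, against 1886, 1139 and 1306 CPM. The classes were alike in the uninjured library and apart in the injured ones. In single cells at 60 dpi the median was 0 in MHC-II-low and 380 CPM in MHC-II-high cells, and 51 of 238 MHC-II-low cells were above 100 CPM. Of these 51 cells, 33 also had over 100 CPM of Vpreb3, while 131 had Vpreb3 without Ms4a1 and 56 had neither. In the uninjured library 6 of 9 cells had Ms4a1, 4 of them with Vpreb3, and at 7 dpi 4 of 26, 3 of them with Vpreb3. Igkc, the kappa light chain, was at 8314, 4085 and 5896 CPM in MHC-II-low cells and 8631, 7429 and 6396 CPM in MHC-II-high cells. Cd72, an inhibitory coreceptor, was at 606 CPM and 633 CPM at 60 dpi, a log2 difference of -0.06. Of 14 genes of receptor signalling, 7 passed, with Bank1, Plcg2 and Prkcb at least 2-fold lower and none higher.

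**Figure D2:**
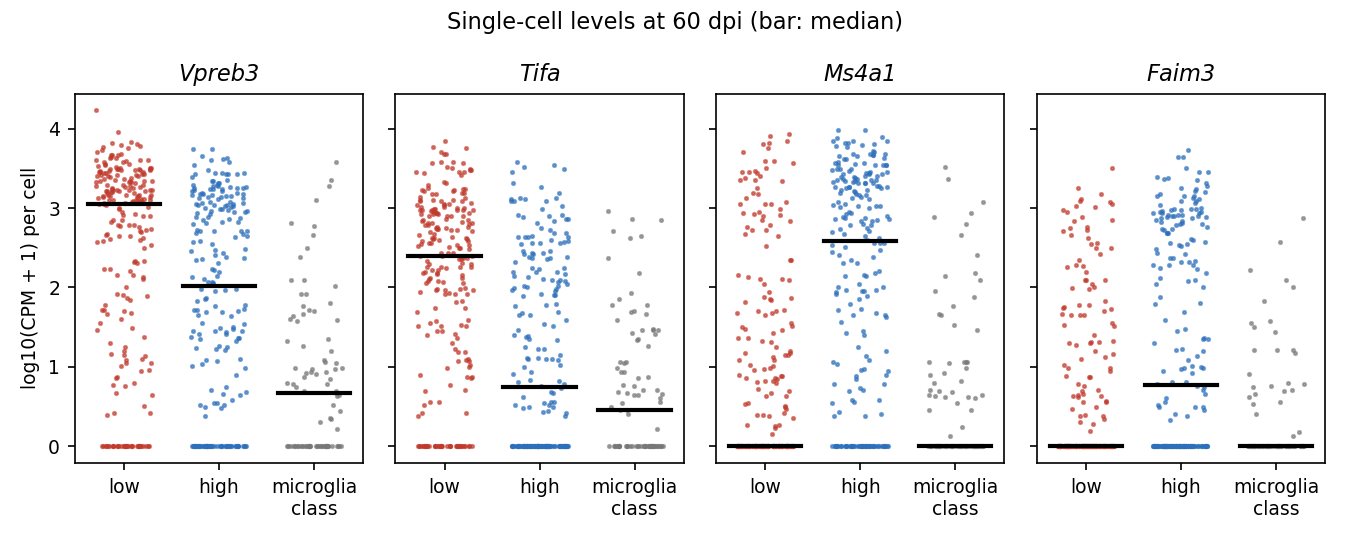
Level of Vpreb3, Tifa, Ms4a1 and Faim3 in single cells of the 60 dpi library (log10 of CPM plus 1, vertical axis) for MHC-II-low B cells without pre-BCR (low, red), MHC-II-high B cells (high, blue) and microglia (grey); each point is a cell and each bar a median. The median of Vpreb3 is 1130.1 CPM in the low and 102 CPM in the high cells, and that of Ms4a1 is 0 and 380 CPM.

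Genes of early B cells had ratios above 0 more often than below it. Of 16 listed genes of V(D)J recombination and early stages, 9 passed at 60 dpi, 8 of them with a positive ratio (median 0.53, against 0.04 for all genes). Il7r was at least 2-fold higher, as were 4.95% of all genes, and none was lower by that much. Over the alternatives tried, Rag1 (-0.47 to 1.02), Myb (-0.51 to 1.26), Cd93 (-0.51 to 1.11) and Sox4 (-0.05 to 0.88) crossed 0. Vpreb3, Chchd10, Il7r and Smarca4 stayed above it. Chchd10 was at 1025, 962 and 1722 CPM in MHC-II-low cells and 619, 556 and 1027 CPM in MHC-II-high cells, higher by 0.73, 0.79 and 0.75 on the log2 scale. The order held in the medians of single cells at 7 dpi (481 and 184 CPM) and 60 dpi (1036 and 104 CPM), and not in the uninjured library (55.0 and 75.4 CPM), where 76.1% of the reads came from 1 cell. Il7r, the receptor of interleukin 7, was at 0.173, 544 and 271 CPM against 0.689, 1.41 and 99.5 CPM. Its reads at 7 dpi came from few cells, 49.3% of them from 1 cell, and T cells also use this receptor. Without cells that had 3 markers of another cell type, its log2 ratio at 60 dpi was 0.52 in place of 1.43. Rag1 was at 310.4, 73.9 and 110.3 CPM (uninjured, 74.8% of reads from 1 cell) against 0, 9.85 and 109.6 CPM, and thus alike in both classes in the 60 dpi sum. In thinned cells of that library it had a read in 23.5% (18.2 to 29.5%) of MHC-II-low, 13.6% (9.39 to 18.9%) of MHC-II-high and 7.53% of microglia (31.1%, 19.3% and 15.1% before thinning). Of 37 MHC-II-low cells above 100 CPM of Rag1 at 60 dpi, 28 also had Vpreb3 and 9 had Il7r. The MHC-II-high class at 60 dpi held 17 cells with at least 1000 CPM of the surrogate light chain. Among cells without pre-BCR and below the class II cut, 13.4%, 16.1% and 16.7% reached 100 CPM of Rag1, in order of rising class II. Above the cut 17.9% (2000 to 4000 CPM), 7.14% (4000 to 8000 CPM) and 2.02% (8000 CPM and above) did so. Ly6d, a surface protein of B-lineage cells, was at 1903 and 1907 CPM at 60 dpi and did not separate the classes.

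Genes of the cell cycle were few past the filter. Of 16 listed, 5 passed at 60 dpi, all with a ratio above 0 (median 0.83), and Stmn1 was at least 2-fold higher in MHC-II-low cells (167 and 53.1 CPM). Mki67 was at 129 and 70.1 CPM. In single cells the median of the 16 genes together was 579 CPM in MHC-II-low and 633 CPM in MHC-II-high cells. At least 3 of them were above 100 CPM in 37 of 238 (11.2 to 20.8%) and 26 of 228 cells (7.59 to 16.3%), with overlapping intervals. Of 17 genes of homing and adhesion 6 passed, and of 16 genes of survival and the TNF family 4, none of them 2-fold apart.

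Among transcription factors of the B lineage, 19 of 25 passed the filter at 60 dpi, and the median ratio was 0.03. Pax5 (206 and 266 CPM), Ebf1 (171 and 151 CPM), Foxp1 (278 and 273 CPM) and Spib (185 and 192 CPM), which hold B cell identity, were within 2-fold in both classes. Bach2, Irf4 and Zeb2 were at least 2-fold higher in MHC-II-low cells, as were 4.95% of all genes, and none was lower by that much. Over the alternatives tried, the ratio of Irf4 went from 0.81 to 1.54 and that of Zeb2 from 0.10 to 1.41. Bach2, a repressor of plasma cell fate, was at 311, 201 and 166 CPM against 74.8, 34.3 and 66.9 CPM, higher by 2.04, 2.52 and 1.30 on the log2 scale. It was above 100 CPM in 47 of 238 MHC-II-low and 26 of 228 MHC-II-high cells at 60 dpi. In the uninjured and 7 dpi MHC-II-low cells 1 cell gave 64.9% and 51.7% of its reads, and with a class II cut of 1000 CPM its ratio at 60 dpi was 0.39.

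Tifa, an adaptor of innate signalling, was at 1210.0 CPM (uninjured), 368 CPM (7 dpi) and 567 CPM (60 dpi) in MHC-II-low cells, against 171, 30.7 and 221 CPM in MHC-II-high cells and 34.4, 24.1 and 42.4 CPM in microglia. It was at least 2-fold higher in MHC-II-low cells in all 3 libraries (2.81, 3.54 and 1.36), as were 10 of the 1692 genes that passed the filter in all 3 (0.591%; 14 were lower, 0.827%). In the uninjured MHC-II-low cells 75.4% of its reads came from 1 cell, so the sum of that library rests largely on 1 cell. In the MHC-II-high cells at 7 dpi 1 cell, at 253 CPM, gave 99.7% of the reads. MHC-II-low cells of that library included cells at 3474, 1108 and 989 CPM, so there the single cell sets the lower side of the ratio. At 60 dpi its median was 245 CPM in MHC-II-low cells (quartiles 14.9 and 910.2) and 4.64 CPM in MHC-II-high cells (0 and 154). In thinned cells it was read in 76.1% (70.1 to 81.4%), 44.5% (37.9 to 51.4%) and, in microglia, 30.1%, and before thinning in 84.0%, 57.0% and 53.8%. With a class II cut of 1000 CPM its ratio at 60 dpi was 0.68.

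By size of the ratio at 60 dpi, with the same sign in all 3 libraries, the highest genes were Ctla2a (2.37), Eps8 (1.89), Angel2 (1.87), Marcksl1 (1.73) and Asf1a (1.63), followed by Stmn1, Gm11223, Hist1h2ag, Cdkn1a, Wwp2, Bcl7b, Ndufab1, Gm4459, Tifa and Chtop. Asf1a, a histone chaperone, had a read in 30.8% of thinned MHC-II-low and 10% of MHC-II-high cells, whereas 66.6% of Ctla2a reads and 46.1% of Marcksl1 reads came from 1 cell. The ratio of Marcksl1 turned to -0.30 without cells that had 3 markers of another cell type. Stmn1 and Gm11223, and Ndufab1 and Gm4459, had similar levels within each pair. The second of each pair is annotated as a processed pseudogene, so the pairs may share reads, which was not tested. The lowest were Bank1 (-3.04), H2-Eb1 (-2.71), H2-DMb2 (-2.68), H2-DMb1 (-2.18) and Cfp (-1.98), followed by Faim3, Cd74, Cd83, H2-DMa, Cd22, Mknk2, Plaur, Dock2, Retnlg and Tulp4. Retnlg is a granulocyte gene, at 22.3 CPM in MHC-II-low and 67.3 CPM in MHC-II-high cells at 60 dpi.

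**Figure D3:**
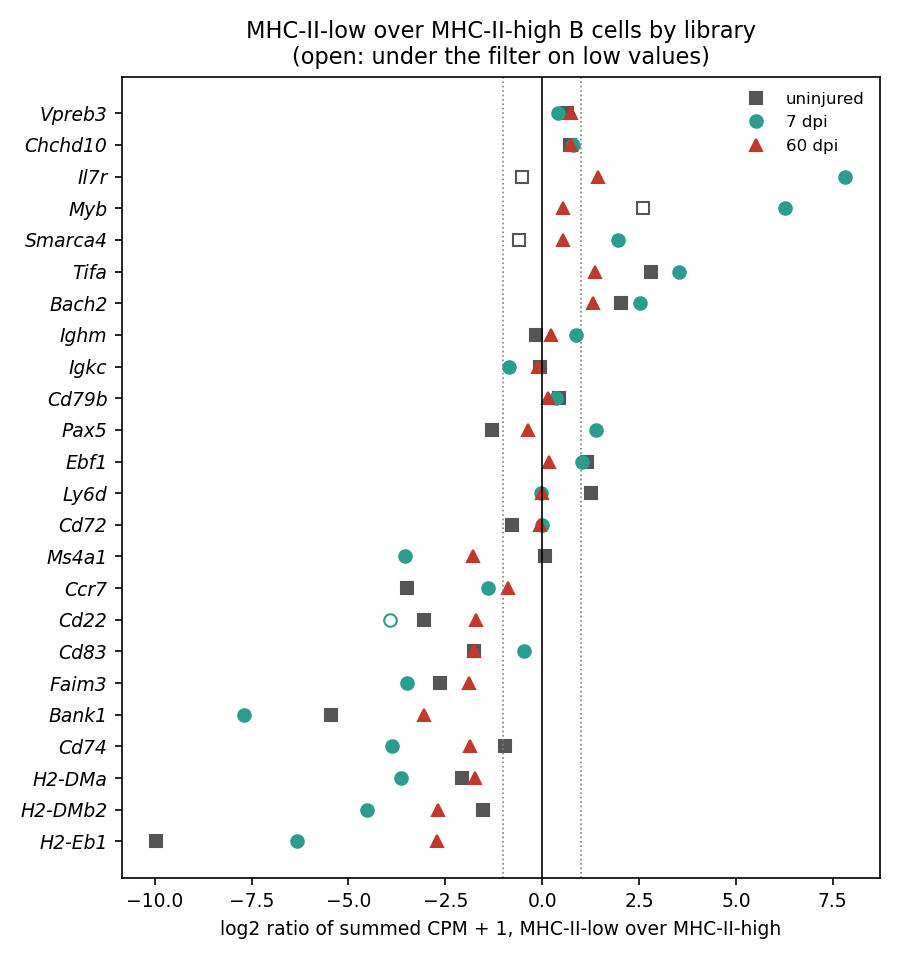
Log2 ratio of summed CPM plus 1 of MHC-II-low over MHC-II-high B cells (horizontal axis) for 24 genes in the uninjured (grey squares), 7 dpi (green circles) and 60 dpi (red triangles) libraries; open symbols did not pass the filter on low values and dotted lines mark 2-fold. Vpreb3, Chchd10, Tifa and Bach2 lie to the right in all libraries and H2-Eb1, H2-DMb2, H2-DMa, Cd74, Bank1 and Faim3 to the left; the uninjured point of H2-Eb1 rests on 0 reads, so its place depends on the added 1 CPM.

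Since the cut on class II lay within a continuous range, the B cells without pre-BCR at 60 dpi were also ordered by their H2-Aa plus H2-Ab1 level. Within the MHC-II-low range, the share of cells above 100 CPM of Vpreb3 was 64.2% (0 to 200 CPM of class II, 67 cells), 72.4% (200 to 1000 CPM, 87 cells) and 69.0% (1000 to 2000 CPM, 84 cells), with overlapping intervals. Above the cut it was 64.3% in 56 cells of 2000 to 4000 CPM, 44.6% in 56 cells of 4000 to 8000 CPM and 40.4% in 99 cells of 8000 CPM and above. Tifa went from 67.2%, 59.8% and 60.7% within the MHC-II-low range to 46.4%, 32.1% and 17.2% above it. Ms4a1 went the other way, from 16.4%, 17.2% and 29.8% to 46.4%, 66.1% and 64.6%, and Faim3 from 10.4%, 16.1% and 16.7% to 30.4%, 35.7% and 47.5%. Bank1 was above 100 CPM in 2.99%, 5.75% and 3.57% and then in 16.1%, 23.2% and 29.3% of cells. The 2000 to 4000 CPM group thus lay between the groups on either side for Tifa, Ms4a1, Faim3 and Bank1. Median depth was between 240303 and 324470 reads in the 6 groups. The median of Ighm was 2755, 1983 and 2788 CPM within the MHC-II-low range and 2860, 1967 and 1812 CPM above it, with no such order.

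**Figure D4:**
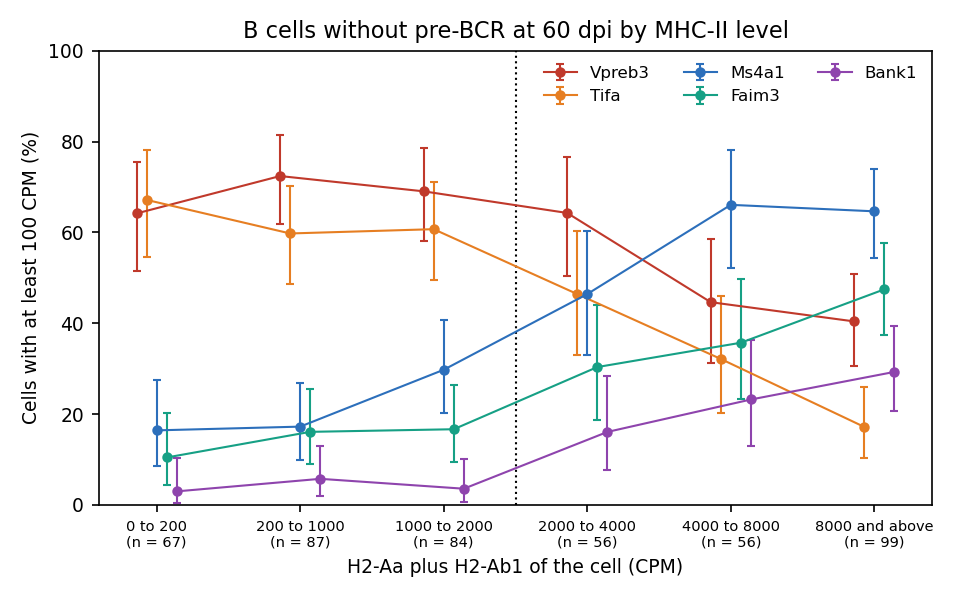
Share of B cells without pre-BCR at 60 dpi with at least 100 CPM (%, vertical axis) of Vpreb3, Tifa, Ms4a1, Faim3 and Bank1 in 6 groups by H2-Aa plus H2-Ab1 level (horizontal axis, CPM); bars are 95% exact binomial intervals and the dotted line is the 2000 CPM cut. Tifa goes from 67.2% to 17.2% and Ms4a1 from 16.4% to 64.6% across the groups.

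Light chain reads were taken as present at or above 2000 CPM, since microglia also had Igkc reads. Microglia at 60 dpi had a median of 974 CPM of Igkc, and by this cut 22 of 93 had Igkc alone and 2 had both chains. By this cut, 139 of the 238 MHC-II-low cells at 60 dpi had Igkc alone (58.4%, 51.9 to 64.7%), 7 had the lambda chain Iglc2 alone (2.94%, 1.19 to 5.97%), 43 had both (18.1%, 13.4 to 23.6%) and 49 neither (20.6%, 15.6 to 26.3%). MHC-II-high cells had 132, 7, 55 and 34 of 228, with neither in 14.9% (10.6 to 20.2%), and MHC-II-low cells with pre-BCR had neither in 37 of 58 (63.8%, 50.1 to 76.0%). In the uninjured library 4 of the 9 MHC-II-low cells had Igkc alone, 1 had Iglc2 alone and 4 had both. At 7 dpi, 11 of 26 had Igkc alone, 1 Iglc2 alone, 2 both and 12 neither, where none of 262 microglia reached 2000 CPM of either chain. In the uninjured library 28 of 260 microglia had Igkc alone, so the level of Igkc outside B cells differed between libraries. The share with neither chain was 46.2% (26.6 to 66.6%) at 7 dpi and 0 of 9 (exact interval up to 33.6%) in the uninjured library, and these intervals overlapped. Ighm of at least 2000 CPM together with a light chain was found in 133 of 238 cells at 60 dpi (55.9%, 49.3 to 62.3%), 11 of 26 at 7 dpi and 5 of 9 in the uninjured library.

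The 49 MHC-II-low cells at 60 dpi without a light chain differed in other genes from the 189 with one. In the sums, Vpreb3 was at 1511 CPM with and 657 CPM without a light chain, Ly6d at 2467 and 473 CPM, Chchd10 at 2104 and 754 CPM, Tifa at 709.9 and 204 CPM and Cd79b at 2601 and 1459 CPM. Rag1 was at 107 and 118 CPM and Il7r at 261 and 295 CPM, so Cd79b, Rag1 and Il7r were within 2-fold and the other 4 genes were not. The medians lay further apart than the sums for Vpreb3 (1259 and 35.1 CPM), Ly6d (1298 and 84.8 CPM) and Chchd10 (1471 and 229 CPM), and were 0 in both sets of cells for Rag1 and Il7r. The T cell receptor gene Trbc2 was at 75 CPM with and 268 CPM without a light chain, and the cytotoxic granule gene Nkg7 at 78.6 and 457 CPM. At 60 dpi at least 3 of 7 T cell markers were above 100 CPM in 16 of 238 MHC-II-low, 5 of 228 MHC-II-high and 4 of 93 microglia, and all 7 had reads in the MHC-II-low cells; summed T cell markers were at 390.4, 181 and 412 CPM. The part of such cells in the split by light chain was not tested.

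**Figure D5:**
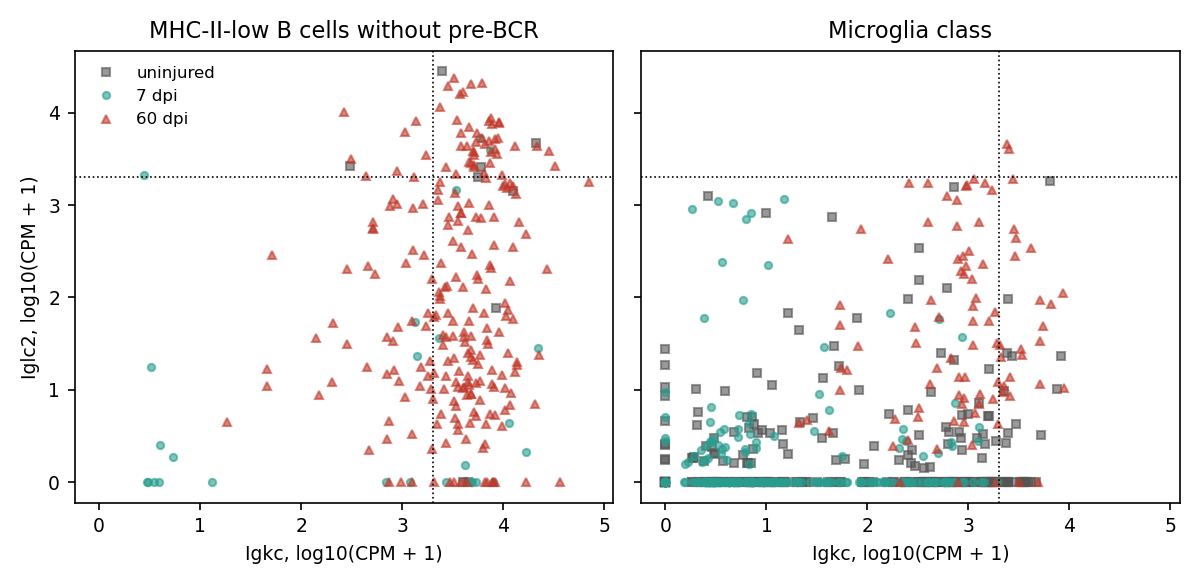
Igkc (horizontal axis) and Iglc2 (vertical axis), log10 of CPM plus 1, in single MHC-II-low B cells without pre-BCR (left) and microglia (right) of the uninjured (grey squares), 7 dpi (green circles) and 60 dpi (red triangles) libraries; dotted lines mark 2000 CPM. At 60 dpi 139 of 238 B cells lie in the lower right field (Igkc alone) and 43 in the upper right (both), and 22 of 93 microglia lie in the lower right field.

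Beside MHC-II-low B cells with pre-BCR of the same library, the MHC-II-low cells without it were at a distance in both directions. At 60 dpi, 262 of 2851 genes (9.19%) were at least 2-fold higher in the cells without pre-BCR and 238 (8.35%) at least 2-fold lower. Of 16 early genes 11 passed the filter and 5 were at least 2-fold lower, among them Dntt, the enzyme that adds untemplated bases at joints (7.90 against 429 CPM), Rag1 (110.3 against 348 CPM), Lef1 (47.3 against 314 CPM), Myb (107 against 250.2 CPM) and Smarca4 (277 against 713 CPM). Igkc (5896 against 1973 CPM), Iglc2 (1207 against 347 CPM) and Ms4a1 (377 against 82.2 CPM) were at least 2-fold higher. Vpreb3 (1269 against 1851 CPM), Chchd10 (1722 against 1898 CPM), Ighm (2892 against 2125 CPM) and Il7r (271 against 284 CPM) were within 2-fold.

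Between libraries, the MHC-II-low B cells could be compared only as 1 pool against 1 pool, and injury, time, mice and library cannot be told apart. From the uninjured to the 60 dpi library, 36.3% of 2697 genes were at least 2-fold higher and 21.5% at least 2-fold lower, from the uninjured to the 7 dpi library 39.5% and 24.1% of 2845 genes, and from 7 to 60 dpi 17.4% and 16.7% of 2959 genes. These counts depended on single cells: without the top cell of each gene, 134 of 2340 genes were lower over uninjured, and 854 of 2466 were higher and 178 lower over 7 dpi. Ighm differed by -0.08 and 0.05 on the log2 scale, Vpreb3 by -0.44 and -0.22 and Chchd10 by 0.75 and 0.84. Ms4a1 was at 1978 CPM (uninjured), 96.5 CPM (7 dpi) and 377 CPM (60 dpi), and Ly6d at 4472, 1085 and 1903 CPM. Both genes were highest in the uninjured library. Mki67 and Stmn1, genes of dividing cells, were at 0 and 0.173 CPM in the 9 uninjured cells, at 173 and 174 CPM at 7 dpi and at 129 and 167 CPM at 60 dpi; 0 reads in the uninjured cells allow up to 0.52 CPM. At 60 dpi 17.4% of the Mki67 reads came from 1 cell.

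Genes with the highest ratios between libraries included known genes of myelin, erythrocytes and macrophages. Over the uninjured library at 60 dpi they were Ighg2b, Spp1, Mbp, Hba-a2 and Hbb-bs, and over 7 dpi Ighg2b, Xist, Mobp, Fabp5 and Igj. Spp1, which encodes osteopontin, was at 0, 224 and 1604 CPM in the MHC-II-low cells of the 3 libraries and at 52.5, 493 and 6177 CPM in microglia, and the myelin gene Mbp at 0.346, 62.4 and 961 CPM and at 144, 36.6 and 783 CPM. The lowest over the uninjured library were Id1, Fbxo4, Mtcp1, Znhit3 and D10Wsu102e, and over 7 dpi Gm14269, Slc40a1, Mtus1, Klhl17 and Havcr2. Each of the first 5 was at 0.227 to 8.22 CPM at 60 dpi and at 95.1 to 359 CPM in 9 uninjured cells. Ighg2b, the constant region of an IgG isotype, was at 1995 CPM in MHC-II-low and 205 CPM in MHC-II-high cells at 60 dpi, but 82.3% of the reads came from 1 cell, and the medians were 4.79 and 5.44 CPM. Markers of other cells also differed between the libraries: granulocyte markers summed to 5.89 CPM in the uninjured, 3972 CPM in the 7 dpi and 1057 CPM in the 60 dpi cells, and erythroid markers to 4.68, 3246 and 4581 CPM. The median cell had 0, 2729.7 and 105 CPM of erythroid markers, so the order of both injured libraries was the opposite in the median and in the sum. Their part in the other differences between libraries was not tested.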

How the data were processed

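Spinal cord cells sorted for CD45 were profiled in nanowells, with 1 library per condition. The authors deposited whole-number read counts per gene and cell (39066 genes, 1825 cells); reads, not molecules, were counted. Per the study's methods, reads were mapped to mm10 with STAR and counted with Bioconductor packages; the submitters' processing notes name mm10 and Seurat, and the annotation is not given in the sources used here. Counts were scaled here to CPM per cell, or per class after summing reads. Genes were named by lists, by the 15 highest and 15 lowest ratios at 60 dpi with the same sign in all 3 libraries, and by the 5 highest and 5 lowest ratios between libraries. The cells and lists were chosen with earlier results of these data known. Samples were not replicated, so no test was run; exact binomial intervals cover counting error only. Cells were thinned to 50000 reads for shares with a read. Of 258 genes looked up, 255 had a GENCODE vM21 position. Scripts used Python 3.11.15, numpy 2.4.6, pandas 2.3.3 and scipy 1.17.1. The ratio code was run on simulated reads without differences between cells of a class, so this run cannot show how far single cells move a ratio. Reads in total numbered 306721154, 365066887 and 382779731 per library. Tried alternatives were other cuts, cell filters, scalings, pseudocounts and filters on low values. Results of some genes are not reported here. The 3 dpi sample was not used here.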

Additional observations from a re-analysis of the deposited data

How the results depend on the processing

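No paired analysis was possible because each condition had 1 library. Of 44 named genes at least 2-fold apart between MHC-II-low and MHC-II-high cells at 60 dpi, 17 stayed so and 41 kept their sign under all 13 alternatives. With a class II cut of 1000 CPM the share at 60 dpi was 29.4% of B cells and 16.3% of all cells, and with 4000 CPM 56.1% and 31.1%, with 192 genes higher. A B cell cut of 1000 CPM gave 21.4% of all cells, and scaling without mitochondrial, ribosomal protein and hemoglobin genes 40.9% of B cells. Leaving out cells with 3 markers of another class gave 33.3% of 3 B cells and 16.7% of the 6 cells left at 7 dpi, where 1 MHC-II-low cell remained, and 17.9% (of 39) and 34.1% (of 370) of the cells left in the uninjured and 60 dpi libraries, a share that is larger by construction since most microglia are left out, with 236 genes higher and 175 lower; with under 5 cells, gene ratios were not computed for 7 dpi. Without the top cell of each gene, 134 genes were lower over uninjured, and 854 higher and 178 lower over 7 dpi. Without a filter on low values 2804 and 2402 genes were higher and lower than in MHC-II-high cells, 8414 and 1598 over uninjured and 6025 and 2040 over 7 dpi. The ratio turned for Ighg2b (-1.87 with the 1000 CPM cut, -2.40 with the other scaling), Hbb-bs (-0.58 with that cut, -0.14 without its top cell), Marcksl1 (-0.30 without cells of mixed markers) and, over uninjured and without the top cell, Mtcp1 (1.59) and Cd74 (0.94). The cause was not tested. The alternatives without cells with Y-linked reads and without the 17 MHC-II-high cells with pre-BCR reads were chosen after seeing the data; the second gave 140 genes higher and 95 lower. The ratio of Vpreb3 ranged from 0.24 with the 1000 CPM class II cut to 1.12 as a mean of single cells, and passed 2-fold in 3 of the 13 alternatives.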

Other observations

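The 60 dpi B cells above the class II cut held 17 cells with at least 1000 CPM of the surrogate light chain. Some receptors and ligands that the study discussed for B cells were at low levels in the MHC-II-low cells at 60 dpi, and none of these 5 passed the filter on low values: Csf1 was at 8.82 CPM, Il1b at 22.6 CPM, Ccr1 at 9.05 CPM, Ccr2 at 9.93 CPM and Ltb at 3.68 CPM. Microglia of that library had 10.5, 41.8, 36.3, 43.5 and 1.75 CPM, so of these Ltb alone was above the microglial level. MHC-II-high B cells had 20.3 CPM of Ltb. The study predicted its pairs from all B cells, with the Ltb pair only in the uninjured cord and the Ccr2 pair in subacute injury. For these genes the 60 dpi values of 1 class are therefore not a like comparison. In the uninjured library Ltb passed the filter and was at least 2-fold lower in MHC-II-low than in MHC-II-high cells. Among plasma cell genes, Prdm1 was at 12.3 CPM and Sdc1 at 25 CPM in the MHC-II-low cells at 60 dpi. Of the Prdm1 reads, 53.5% came from 1 cell. Of 13 listed isotype and plasma cell genes 6 passed the filter at 60 dpi. Ighg2b and Irf4 were at least 2-fold higher in MHC-II-low than in MHC-II-high cells and none was lower by that much. At least 3 of 12 such markers were above 100 CPM in 23 of 238 MHC-II-low cells (6.23 to 14.1%) and 9 of 228 MHC-II-high cells (1.82 to 7.36%). Xbp1 was at 122 CPM, within 2-fold of the 102 CPM in MHC-II-high cells.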
